A study of Homo sapiens with 6 samples.

Results

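The 10 genes described here mark mesenchymal cells and the epithelial-to-mesenchymal transition (EMT). FN1, TNC, CD44, CDH2, CDH11, VIM, ACTA2, SNAI2, TWIST1 and ZEB1 were followed across 6 Affymetrix arrays of Ewing sarcoma cells. They were taken by symbol from the platform annotation. Each of the 10 members had 1 probe set that names it alone, so all 10 of 18417 named genes are described and no filter removed any. A673 and SK-N-MC are established cell lines of Ewing sarcoma, a bone and soft tissue tumour in which EWSR1 is fused to a gene of the ETS family. Each line was transfected with an siRNA that silences nothing (control), an siRNA against DKK2, which encodes a secreted modulator of Wnt signalling (siDKK2), or an siRNA against ITM2A, which encodes a membrane protein and served as another, independent knock-down (siITM2A). There was 1 array for each of the 6 combinations, with no label for repeat cultures, so p-values measure only the spread between these arrays. Each line is 1 model of the tumour, and a difference between A673 and SK-N-MC says nothing of other Ewing sarcomas.

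EMT is the switch by which cells that hold together in sheets loosen and move. Transcription factors of the SNAI, TWIST and ZEB families bind E-box DNA letters and repress epithelial genes such as CDH1, while N-cadherin, vimentin, fibronectin and contractile actin rise. Ewing sarcoma cells are often described as neither clearly epithelial nor clearly mesenchymal, and the genes of both programmes are used to place them.

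The start regions of 4 of the genes on which the results below turn are given here, with any E-box letters marked. The 250 bases before each transcription start listed by RefSeq (GRCh38.p14) are given 5′ to 3′ on the gene's strand for FN1, CDH2, ACTA2 and CD44, the 4 genes with the largest higher levels in A673. Capitals mark the 6-base general E-box CANNTG, which basic helix-loop-helix factors such as TWIST1 bind, and a match of these letters is not a binding site. CDH2 and ACTA2 each have 2 listed starts.
FN1, chr2:215436069-215436318, minus strand: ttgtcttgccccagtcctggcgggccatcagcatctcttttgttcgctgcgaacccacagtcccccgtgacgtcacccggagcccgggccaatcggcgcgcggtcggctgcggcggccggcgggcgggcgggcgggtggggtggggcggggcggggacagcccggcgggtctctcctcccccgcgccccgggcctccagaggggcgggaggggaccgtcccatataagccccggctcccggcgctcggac
CDH2, first listed start, chr18:28177131-28177380, minus strand: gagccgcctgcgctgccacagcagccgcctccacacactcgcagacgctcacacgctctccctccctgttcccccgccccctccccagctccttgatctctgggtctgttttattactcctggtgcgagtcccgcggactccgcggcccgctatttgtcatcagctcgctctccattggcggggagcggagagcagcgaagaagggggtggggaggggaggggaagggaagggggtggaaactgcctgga
CDH2, second listed start, chr18:28036642-28036891, minus strand: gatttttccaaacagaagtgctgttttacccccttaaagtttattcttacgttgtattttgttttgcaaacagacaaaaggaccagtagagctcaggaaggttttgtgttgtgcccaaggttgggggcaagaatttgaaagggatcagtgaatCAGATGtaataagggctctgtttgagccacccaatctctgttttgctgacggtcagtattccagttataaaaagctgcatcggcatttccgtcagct
ACTA2, first listed start, chr10:88991338-88991587, minus strand: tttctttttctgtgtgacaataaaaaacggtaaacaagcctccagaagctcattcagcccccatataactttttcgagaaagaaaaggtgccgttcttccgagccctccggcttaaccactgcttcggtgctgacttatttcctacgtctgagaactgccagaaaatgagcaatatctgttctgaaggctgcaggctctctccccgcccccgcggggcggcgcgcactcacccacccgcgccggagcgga
ACTA2, second listed start, chr10:88952774-88953023, minus strand: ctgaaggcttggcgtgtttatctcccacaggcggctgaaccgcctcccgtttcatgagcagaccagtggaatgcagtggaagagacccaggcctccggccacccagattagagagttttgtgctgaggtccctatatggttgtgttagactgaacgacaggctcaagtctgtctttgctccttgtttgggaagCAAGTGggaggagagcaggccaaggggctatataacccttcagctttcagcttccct
CD44, chr11:35138921-35139170, plus strand: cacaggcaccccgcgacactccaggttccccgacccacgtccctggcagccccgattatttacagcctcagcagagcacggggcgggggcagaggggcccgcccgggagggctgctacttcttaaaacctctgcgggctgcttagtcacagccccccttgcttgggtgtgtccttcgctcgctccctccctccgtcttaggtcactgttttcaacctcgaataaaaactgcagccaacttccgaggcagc

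Of the 10 genes 7 had windows in the RefSeq table, and CDH11, SNAI2 and TWIST1 had none there. CDH1, the epithelial gene named above, had none either, so the start of that repressed target was not searched. The letters CANNTG occurred 97 bases before the second start of CDH2, as CAGATG, and 57 bases before the second start of ACTA2, as CAAGTG. TNC carried CAAATG at 186 and CAACTG at 93 bases before its start. The windows of FN1, CD44 and VIM held none. CANNTG is a palindrome in its fixed letters, so 1 search covered both strands. In all, 3 of the 8 windows of the 6 genes that were higher in A673 held it, against 61.8% of the 35116 windows of the table. The E-box that SNAI and ZEB factors prefer, CACCTG or on the other strand CAGGTG, is one form of CANNTG. It stood in 0 of the 8 windows, also when the 50 bases after the start are included, against 17.5% of all windows before the start. ZEB1 itself had 7 listed starts, of which 2 held these letters. The windows also differed in CpG, the dinucleotide that DNA methylation acts on, from 4 at the second start of CDH2 to 32 at FN1, with an interquartile range of 3 to 23 over all windows.

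The arrays were alike in overall level, with medians of 3.35 to 3.44 on the log2 scale, and all values below are log2 RMA values. Over all probe sets the correlation was 0.986 to 0.991 within a line and 0.959 to 0.965 between lines. In its own knock-down DKK2 kept 53.0% (A673) and 35.1% (SK-N-MC) of the control level, and ITM2A 8.86% and 9.55%. With siDKK2, ITM2A stood at 9.21 against 8.52 with control in A673, and at 9.66 against 9.48 in SK-N-MC. With siITM2A, DKK2 stood at 9.13 against 8.64 with control in A673, and at 7.94 against 8.01 in SK-N-MC. The ITM2A siRNA carries the number 7 in the A673 label but 1 in that of SK-N-MC; whether they are the same oligonucleotide is not given in the sources used here, so siITM2A may be a different reagent in each line. Of 10 measured Ewing sarcoma markers 9, among them CD99, NKX2-2 and STEAP1, lay above the median level of a gene (4.04) on every array; GLI1 did not. None of 6 endothelial or 5 leukocyte markers lay above it on every array, though the endothelial CLDN5 did on some (3.75 to 4.44). The means of these lists stayed at 2.69 to 2.89 and 2.24 to 2.36.

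The cell lines differed widely in these genes. A673 had more transcript of 6 of the 10, the matrix genes FN1 and TNC, the hyaluronan receptor CD44, the cadherin CDH2, the intermediate filament VIM and smooth muscle actin ACTA2, by 3.42-fold to 28.8-fold. SK-N-MC had more of 2, the transcription factors TWIST1 and SNAI2, by 2.56-fold and 2.07-fold. CDH11 and ZEB1 did not pass the test. With limma and siRNA as a block (3 arrays a line, adjusted p under 0.05 over all genes) 8 of 10 passed, where 28.5% of all genes passed; 13.8% of genes were higher and 14.7% lower in A673. The median difference of the 10 was 1.90, against -0.02 for all genes. At least 16-fold between the lines were 3 of the 10, CDH2, FN1 and ACTA2, and 0.228% of all genes. The 10 genes were chosen with earlier results of these data known. Their shares and median beside those of all genes carry that choice, here and below. In these bulk samples a higher share of cells that make a transcript and more of it per cell cannot be told apart.

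**Figure D1:**
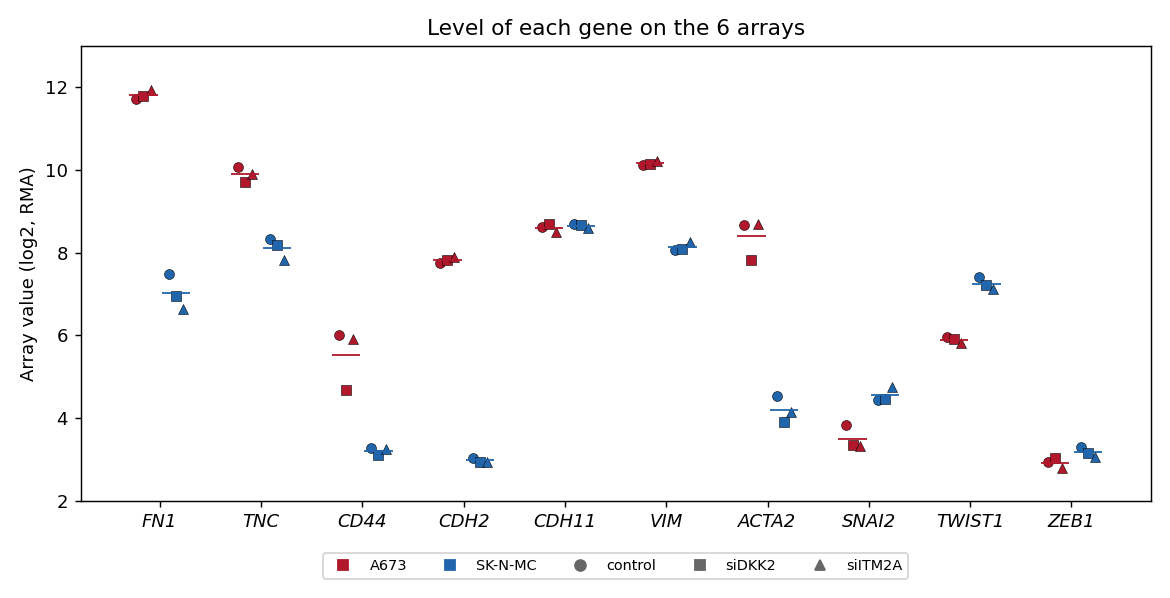
Log2 RMA value (vertical axis) of each gene on the 6 arrays, A673 in red and SK-N-MC in blue, with circles for control, squares for siDKK2 and triangles for siITM2A; the short lines are the means of 3 arrays. The lines stand apart for every gene but CDH11, by least for ZEB1. The A673 siDKK2 array is lowest of its line for CD44, ACTA2 and TNC.

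Fibronectin (FN1) is the matrix glycoprotein that cells grip through integrins. In A673 it stood at 11.72 with control, 11.79 with siDKK2 and 11.94 with siITM2A, and in SK-N-MC at 7.48, 6.95 and 6.64. The A673 arrays were all above the SK-N-MC arrays, and the siRNAs lay wider apart in SK-N-MC (SD 0.42, n = 3 arrays) than in A673 (SD 0.11, n = 3). FN1 was higher in A673 by 4.79 ± 0.18 (SE; limma, adjusted p = 6.6e-07), or 27.7-fold.

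Tenascin-C (TNC) is a matrix protein of developing, wounded and tumour tissue that loosens the hold of cells on fibronectin. It stood at 10.07, 9.71 and 9.90 in A673 with control, siDKK2 and siITM2A, while SK-N-MC gave 8.34, 8.19 and 7.83. The lines did not overlap, and the difference was 1.77 ± 0.13 (limma, adjusted p = 2.2e-05).

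CD44 binds hyaluronan at the cell surface and marks mesenchymal and stem-like states in many tumours. Its A673 arrays stood at 6.00 with control, 4.67 with siDKK2 and 5.91 with siITM2A, and its SK-N-MC arrays at 3.26, 3.10 and 3.24. The lowest A673 array was still above the highest SK-N-MC array, but the A673 siDKK2 array was set well below the other two. CD44 was higher in A673 by 2.33 ± 0.21 (limma, adjusted p = 7.8e-05), and by 1.57 between the siDKK2 arrays alone against 2.73 between the control arrays. Its SK-N-MC values lay just under the array medians.

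N-cadherin (CDH2) joins neural and mesenchymal cells to each other and replaces E-cadherin in EMT. It gave 7.76, 7.81 and 7.89 in A673 with control, siDKK2 and siITM2A, and 3.04, 2.94 and 2.94 in SK-N-MC. The arrays of a line were nearly level (SD 0.07 for A673 and 0.06 for SK-N-MC, n = 3 each), and SK-N-MC lay below its array medians. At 4.85 ± 0.11 (limma, adjusted p = 1.8e-07), or 28.8-fold, it had the 3rd smallest p of all genes between the lines.

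CDH11, a cadherin of bone-forming and other mesenchymal cells, was close in both lines by value. The A673 arrays stood at 8.61, 8.69 and 8.50 with control, siDKK2 and siITM2A, and the SK-N-MC arrays at 8.70, 8.67 and 8.58. The ranges overlapped, and the difference was -0.05 with a 95% interval of -0.29 to 0.19 (limma, adjusted p = 0.80). Of the mesenchymal cadherins CDH2 thus passed between the lines, and the CDH11 interval reached no further than 0.29 from zero.

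Vimentin (VIM) is the intermediate filament of mesenchymal cells. It stood at 10.11, 10.14 and 10.23 in A673 with control, siDKK2 and siITM2A, while SK-N-MC gave 8.06, 8.08 and 8.25. Both lines held VIM well above the array medians, and A673 was higher on every array, by 2.03 ± 0.10 (limma, adjusted p = 3.1e-06), or 4.08-fold.

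Smooth muscle actin (ACTA2) is the contractile actin of smooth muscle and myofibroblasts. Its A673 arrays stood at 8.67 with control, 7.82 with siDKK2 and 8.68 with siITM2A, and its SK-N-MC arrays at 4.53, 3.91 and 4.16. The lines were far apart, and the siDKK2 array was the lowest in each. ACTA2 was higher in A673 by 4.19 ± 0.13 (limma, adjusted p = 3.0e-07), or 18.3-fold. The coding sequences of the actins are close to each other, and the part of shared signal in the ACTA2 values was not tested. Of the other actins, cytoplasmic ACTB was higher in A673 too, by 0.55 ± 0.13 (limma, adjusted p = 0.011), with means of 11.63 and 11.08. ACTG1 (0.33), ACTA1 (0.10) and ACTC1 (0.06) did not pass, and ACTG2 was lower in A673 (-0.49 ± 0.10; limma, adjusted p = 0.0081).

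Of the 3 EMT transcription factors, TWIST1 and SNAI2 were lower in A673. TWIST1, a helix-loop-helix factor of mesoderm and neural crest, stood at 5.96, 5.90 and 5.82 in A673 with control, siDKK2 and siITM2A, while SK-N-MC gave 7.41, 7.22 and 7.12. Every SK-N-MC array was above every A673 array, and A673 was lower by 1.36 ± 0.10 (A673 minus SK-N-MC -1.36; limma, adjusted p = 3.1e-05). SNAI2, a zinc-finger repressor of E-cadherin, stood at 3.83, 3.34 and 3.33 in A673 and at 4.44, 4.45 and 4.74 in SK-N-MC. It did not overlap either, at -1.05 ± 0.15 (limma, adjusted p = 0.0010). Taken within 1 siRNA the SNAI2 difference ran from -0.62 between the control arrays to -1.41 between the siITM2A arrays. The A673 values of SNAI2 with siDKK2 and siITM2A lay just under their array medians.

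ZEB1, a zinc-finger repressor of epithelial genes, was dim in both lines. Its values were 2.95, 3.03 and 2.78 in A673 and 3.31, 3.16 and 3.05 in SK-N-MC, all below the array medians. The lowest SK-N-MC array lay just above the highest A673 array, and the difference of -0.25 (95% interval -0.50 to -0.01) did not pass over all genes (limma, adjusted p = 0.13). Without overlap of the lines there were 9 of the 10 genes, against 38.9% of all genes.

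**Figure D2:**
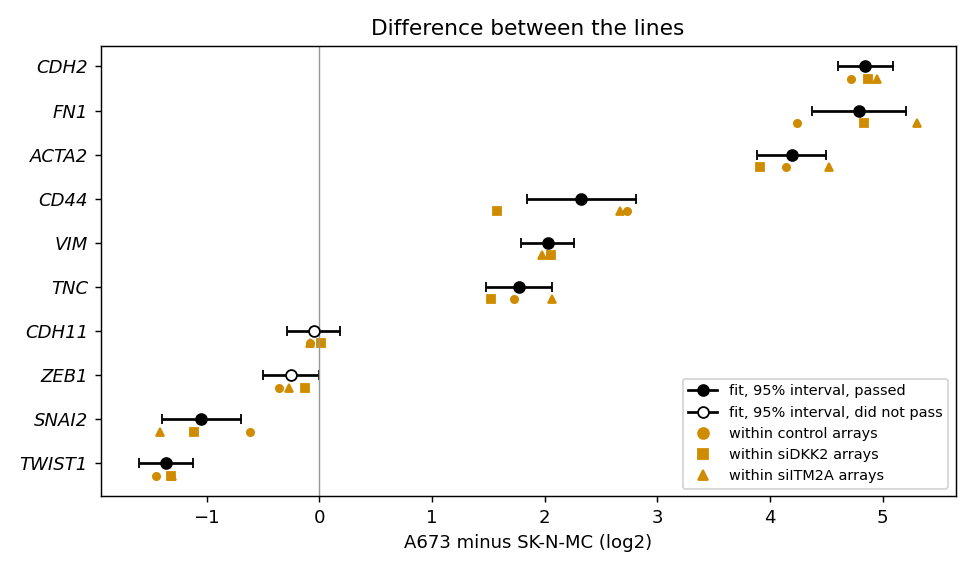
A673 minus SK-N-MC on the log2 scale (horizontal axis) for each gene, with black points for the fit, bars for its 95% interval and filled points for genes past the threshold; orange symbols are the differences between 2 arrays of 1 siRNA. The 6 genes higher in A673 lie right of zero from 1.77 to 4.85, TWIST1 and SNAI2 left of it at -1.36 and -1.05, and the siDKK2 arrays give the smallest CD44 difference, 1.57.

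Over the 6 arrays, with each gene centred on its own mean, the profile nearest to CDH2 was that of DCC, a receptor for netrin, at a root mean square distance of 0.10 (log2), then PKP1, a desmosomal plakophilin, at 0.14, then FN1 at 0.22. The 3 nearest to FN1 were DCC at 0.16, CDH2 at 0.22 and PKP1 at 0.25. DCC stood at 7.11 to 7.46 in A673 and 2.22 to 2.55 in SK-N-MC. These distances rest almost wholly on the step between 2 lines.

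The partners of these genes were taken from lists of related genes. Of 143 measured related genes 67 passed between the lines (39 higher and 28 lower in A673), or 46.9% against 28.5% of all genes. These lists too were chosen with earlier results of these data known. Among receptors and ligands of fibronectin, tenascin and CD44, 7 of 15 were higher in A673 and 1 was lower. The fibronectin receptor chains ITGB1 (1.44 ± 0.11) and ITGA5 (1.23 ± 0.13, named after its value was seen) and the CD44-to-actin linkers radixin (RDX, 2.11 ± 0.14) and moesin (MSN, 1.44 ± 0.14) were higher. ITGA4, a chain of a further fibronectin-binding integrin, was higher in SK-N-MC (-2.01 ± 0.11).

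Matrix glycoproteins split in both directions, 10 of 23 higher in A673 and 5 lower, with a median of 0.10. The fibrillin genes FBN2 (3.73 ± 0.10) and FBN1 (2.66 ± 0.12) and the TGF-beta-induced adhesion protein TGFBI (3.15 ± 0.23) were higher in A673, and the collagen-binding proteoglycan DCN was lower (-2.34 ± 0.21). Contractile and actin genes gave 9 of 22 higher and 3 lower. Caldesmon (CALD1, 2.83 ± 0.12), transgelin (TAGLN, 1.45 ± 0.16) and the actin cross-linker ACTN1 (1.01 ± 0.11) were higher with ACTA2, while the tropomyosin TPM2 was lower (-1.97 ± 0.10).

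Intermediate filament genes other than VIM did not move one way, with 4 of 12 higher and 2 lower. The neurofilament chains NEFM (3.37 ± 0.16) and NEFL (1.87 ± 0.12) and the stem cell filament nestin (NES, 1.66 ± 0.11) were higher in A673, and NEFH was higher in SK-N-MC (-3.00 ± 0.13). Of catenins and cadherin partners 3 of 11 were higher and 2 lower: vinculin (VCL, 1.09 ± 0.10), the cadherin-cleaving protease ADAM10 (0.79 ± 0.11) and alpha-catenin CTNNA1 (0.73 ± 0.12) were higher in A673 and plakoglobin (JUP, -0.81 ± 0.13) lower. Of the other cadherins 2 of 15 were higher and 3 lower, led by CDH8 (1.27 ± 0.11) and P-cadherin CDH3 (-1.17 ± 0.13); these 5 calls became 2 without either control array and 3 without either siITM2A array.

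The epithelial genes were uneven in level. E-cadherin (CDH1) stood at 2.34 to 2.57 on the 6 arrays, under every array median, with a line difference of -0.02 (95% interval -0.27 to 0.22). Of 20 measured, KRT8, KRT18 and CLDN3 lay above the median level of a gene on every array. The probe set kept for the keratin KRT18 was bright in both lines, at 9.09 to 9.76. Whether it reads KRT18 alone was not tested, and KRT8 stood at 4.71 to 5.86. In this list 1 gene was higher and 3 lower in A673: the tight junction scaffold TJP1 (3.66 ± 0.10), which mesenchymal cells also make, and desmoplakin (DSP, -1.61 ± 0.10), CDH3 and MUC1 (-1.11 ± 0.16). For each of these genes the lower line lay under the array medians. The means were 2.88 for TJP1 in SK-N-MC, and 2.79 (DSP), 3.05 (CDH3) and 3.00 (MUC1) in A673. Low CDH1 was common to the line with more CDH2 and the line with more TWIST1 and SNAI2.

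Of 11 other EMT transcription factors 3 passed, ZEB2 higher in A673 (0.51 ± 0.11; limma, adjusted p = 0.0082) and GSC (-0.65 ± 0.20) and TCF4 (-0.37 ± 0.10) lower. These calls were fragile: the count was 0 without either siDKK2 array and 1 without any 1 of the other arrays. With siRNA as a block, leaving out 1 array also takes the other array of that siRNA out of the line difference. GSC itself stood at -0.34 without either siDKK2 array, and its differences within 1 siRNA were -0.63 with control, -1.27 with siDKK2 and -0.06 with siITM2A. The list of TGF-beta and BMP inducers of EMT holds ligands, receptors, response genes and inhibitors such as SMAD7 alike. Of its 18 genes 2 were higher in A673 and 8 lower. The receptor TGFBR2 was higher (2.82 ± 0.12), while BMP2 (-2.70 ± 0.12) and the BMP-responsive genes ID3 (-1.34 ± 0.14) and ID1 (-1.29 ± 0.15) were lower.

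Fibroblast markers, which share the matrix programme, were mixed as well, 3 of 9 higher in A673 and 4 lower. THY1 was higher by 5.17 ± 0.19 and COL3A1 by 2.72 ± 0.14, and FAP was lower (-3.39 ± 0.16). The mean of the 9 markers was 4.67 to 4.83 on the A673 arrays and 4.53 to 4.74 on the SK-N-MC arrays, and the part of these markers in the line differences was not tested. Of the Ewing sarcoma markers 4 of 10 were higher and 2 lower, the largest being CAV1 (2.57 ± 0.13), CCND1 (1.23 ± 0.14) and STEAP1 (-1.24 ± 0.15).

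**Figure D3:**
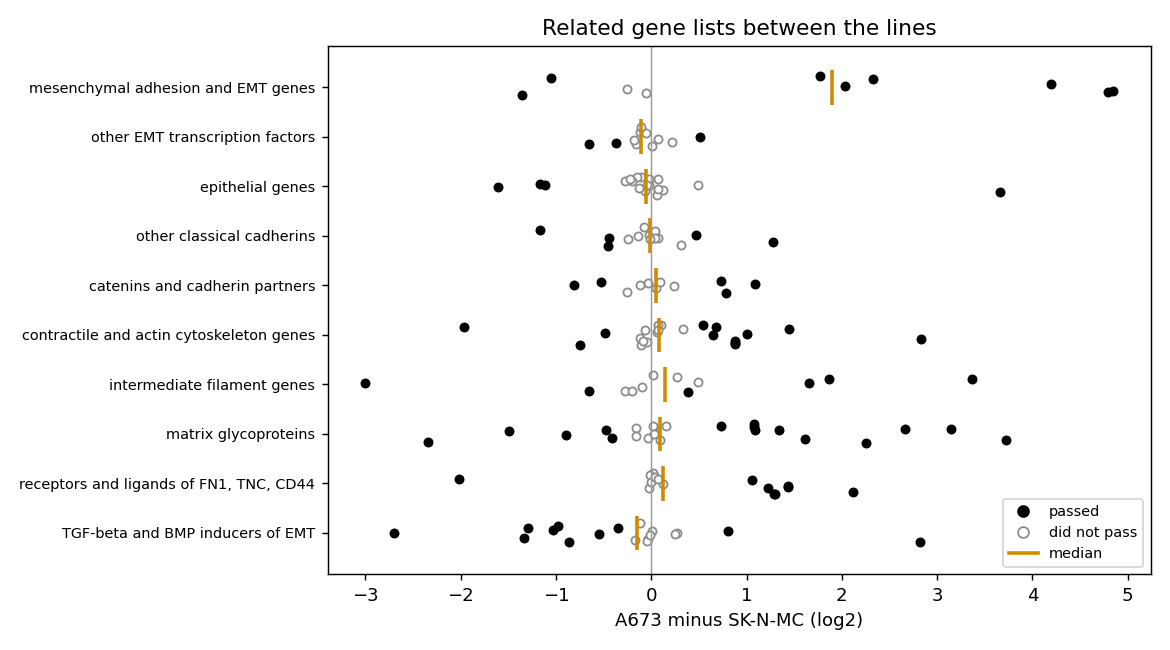
A673 minus SK-N-MC on the log2 scale (horizontal axis) for the genes of each list (rows), filled where the gene passed the threshold, with the list's median as an orange bar; the vertical jitter has no meaning. Most lists hold genes on both sides of zero with medians between -0.14 and 0.15, and the top row has a median of 1.90.

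Of the differences from control in either line, the largest in size was -1.32 for CD44 with siDKK2 in A673. With siDKK2 the 10 genes had a median difference from control of -0.02 for A673 and -0.15 for SK-N-MC, against -0.04 and -0.01 for all genes. None of the 10 passed over all genes (limma with the line as a block, 2 arrays a group; 2 of 10 at an unadjusted p under 0.05), where 0.0109% of all genes passed and 8.68% had such a p. ACTA2 and CD44 were the 2.

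ACTA2 was lower with siDKK2 by value in both lines, by -0.84 for A673 and -0.62 for SK-N-MC. It was the one gene of the 10 at least 1.5-fold lower in both lines, as were 0.418% of all genes. The fitted difference was -0.73 ± 0.16 (95% interval -1.11 to -0.35; limma, adjusted p = 0.30, and 0.149 to 1.00 over the alternatives). With siITM2A, ACTA2 differed from control by 0.01 for A673 and -0.37 for SK-N-MC. Set directly against siITM2A, siDKK2 gave -0.86 for A673 and -0.25 for SK-N-MC (fit -0.55 ± 0.16; limma, adjusted p = 0.46).

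CD44 was lower with siDKK2 mainly in A673, by -1.32, against -0.16 in SK-N-MC. It was the one gene of the 10 at least 2-fold lower in A673, with 0.728% of all genes. The fit gave -0.74 ± 0.26 (limma, adjusted p = 0.49). With the siDKK2 array of SK-N-MC left out it stood at -1.31 (limma, adjusted p = 0.031), a fit that rests the siDKK2 estimate on its A673 array, and with that of A673 left out at -0.18. Against siITM2A the values were -1.23 for A673 and -0.14 for SK-N-MC, with -0.69 ± 0.26 for the fit (limma, adjusted p = 0.54) and -1.25 with the siDKK2 array of SK-N-MC left out (limma, adjusted p = 0.040). On the A673 siDKK2 array 3.48% of all genes were at least 1.5-fold lower than with control and 1.55% higher. In SK-N-MC these shares were 1.84% and 1.06%. The part of such differences between arrays in the CD44 value was not tested.

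FN1 was lower by value with both knock-downs in SK-N-MC, by -0.53 with siDKK2 and -0.84 with siITM2A, and in A673 it stood at 0.07 and 0.22. Both differences share the control array of the line. The siITM2A value made FN1 the one gene of the 10 at least 1.5-fold lower in SK-N-MC with that siRNA, with 1.59% of all genes. The fits were -0.23 ± 0.22 with siDKK2 (limma, adjusted p = 0.82) and -0.31 ± 0.22 with siITM2A (limma, adjusted p = 0.86). TNC, like FN1 a matrix gene, was lower by value in both lines with both siRNAs, by -0.36 for A673 and -0.15 for SK-N-MC with siDKK2 and by -0.17 and -0.51 with siITM2A. It did not pass either (-0.26 ± 0.16 and -0.34 ± 0.16; limma, adjusted p = 0.69 and 0.75).

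CDH2, CDH11 and VIM differed from control by -0.10 to 0.07 with siDKK2 in either line. Their fitted 95% intervals were -0.32 to 0.28 for CDH2, -0.27 to 0.31 for CDH11 and -0.27 to 0.31 for VIM. The transcription factors were uneven: SNAI2 differed by -0.49 for A673 and 0.01 for SK-N-MC, TWIST1 by -0.06 and -0.19, and ZEB1 by 0.08 and -0.15. With siDKK2, 4 of the 10 were lower in both lines, 1 higher in both and 5 in opposite directions, against 31.6%, 23.2% and 45% of all genes.

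With siITM2A none of the 10 passed (limma, 0 at an unadjusted p under 0.05), with 0.0109% of all genes past the threshold and 6.91% at such a p. Of the 10, 5 were lower in both lines, 1 was higher in both and 4 went in opposite directions, against 30.7%, 21.2% and 47.9% of all genes. The medians were -0.10 for A673 and -0.18 for SK-N-MC, against -0.04 and -0.01 for all genes. VIM was the one higher in both, by 0.11 and 0.18, without passing. TWIST1 was lower by value, by -0.14 and -0.29, and ZEB1 by -0.16 and -0.25. Between siDKK2 and siITM2A 0 of 10 passed (limma, 2 at an unadjusted p under 0.05), against 0.0163% of all genes, and 8.32% had such a p.

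**Figure D4:**
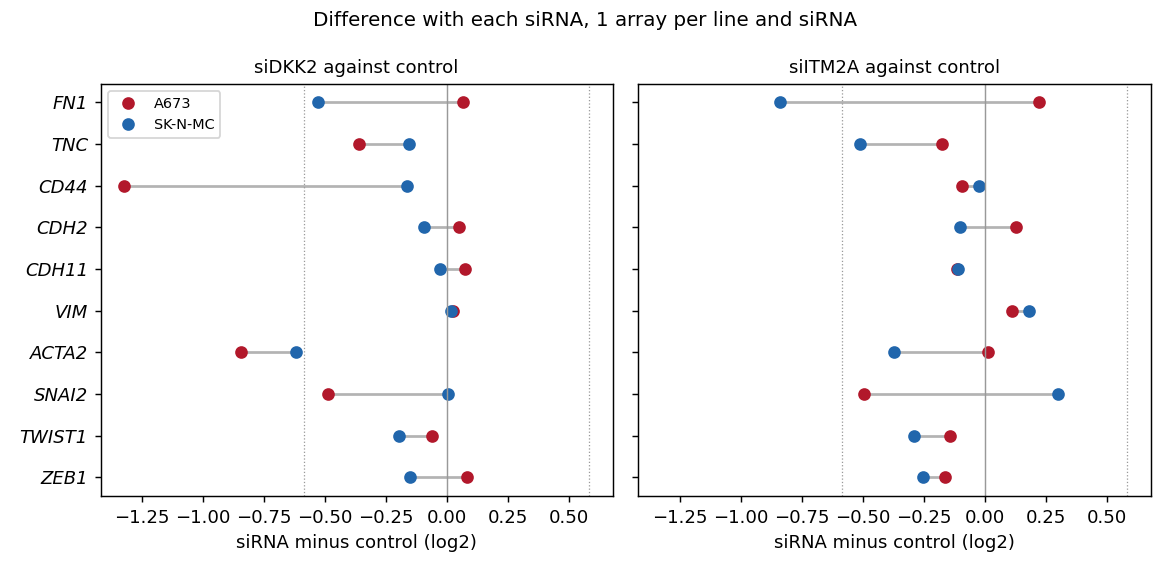
Log2 difference from the control siRNA (horizontal axis) of each gene in A673 (red) and SK-N-MC (blue), with siDKK2 on the left and siITM2A on the right; each point is 1 array minus 1 array and dotted lines mark 1.5-fold. ACTA2 is past the dotted line in both lines with siDKK2, CD44 in A673 at -1.32, and FN1 in SK-N-MC with siITM2A at -0.84.

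The related genes gave no call for either siRNA. Of the 143, 0 passed with siDKK2, 0 with siITM2A and 0 between them (limma). At an unadjusted p under 0.05 were 17 with siDKK2 (11.9%, against 8.68% of all genes), 12 with siITM2A (8.39% against 6.91%) and 18 between them (12.6% against 8.32%). The lowest adjusted p was 0.23 with siDKK2, at the integrin chain ITGAV, which stood at 7.85 with control and 7.24 with siDKK2 in A673 and at 6.61 and 5.75 in SK-N-MC. CDH1 stayed at its low level with each siRNA, 2.34 to 2.57 on all arrays. With 1 array per line and siRNA there was no test of a siRNA effect within a line or of a difference between lines in response.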

How the data were processed

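RNA of 6 transfected cultures was measured on Affymetrix whole-transcript arrays with a biotin label. The deposited log2 values were made by the authors with Affymetrix Expression Console and RMA, per the submitters' processing notes; RMA corrects background and makes array distributions alike. The log2 scale was read from the range, 1.02 to 13.4. For software version, settings and build the entry is: not given in the sources used here. No scanner files were used, and signal over background is unknown.

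Of 33297 probe sets 19460 had 1 symbol, 1754 several and 12083 none in the platform annotation; 19429 were matched by Entrez number. The probe set with the highest mean was kept per gene. Tests used limma 3.58.1 (lmFit, eBayes) in R 4.3.3 on all 6 arrays with line and siRNA as terms (2 residual degrees of freedom, moderated to 8.28), Benjamini-Hochberg over 18417 genes, threshold 0.05, and were tested on simulated data. The labels pair the arrays by line and by siRNA.

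The members and lists were chosen with earlier results of these data known. Beside the members, up to 4 genes per list with the largest line difference past the threshold were named. So were DKK2, ITM2A and the 3 genes nearest in profile to CDH2 and FN1. Some genes were named outside this rule. They were ITGA5, ITGAV (for its lowest adjusted p with siDKK2), CDH1, KRT8, KRT18, CLDN3, CLDN5, NKX2-2, GLI1, SMAD7 and the other actins. The 15 listed genes without a probe set of their own were not used here. Alternatives changed the normalization, probe set, filter, moderation, block and arrays. CANNTG was added to the promoter search after the data were seen.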

Additional observations from a re-analysis of the deposited data

Results flagged for a closer look

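With siITM2A, SNAI2 stood -0.50 from control for A673 and 0.30 for SK-N-MC, opposite directions of at least 1.2-fold in each. Each value is 1 array minus 1 array, and the difference between the lines was not tested. Whether both lines got the same ITM2A oligonucleotide is not given in the sources used here. The other 9 genes showed no such opposite values with either siRNA or between the siRNAs.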

How the results depend on the processing

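Between the lines, all 128 values of the 10 genes under 13 alternatives kept their direction and their side of the threshold. The adjusted p (limma) was at most 0.015 for the 8 that passed. The filter on dim genes removed SNAI2 and ZEB1 and so gave no value for them. Much of this agreement was fixed by the design. Each of the 10 has 1 probe set, so averaging probe sets left its values as they were. The filter, moderation and block settings leave the difference unchanged, so only its p could move. With siRNA as a block, leaving out either array of an siRNA gives the same fit. With each array centred on its median CDH2 and ZEB1 turned to 0.016 and 0.0062 for siDKK2 against control, neither past the threshold. Without the block 3 other cadherins passed and 0 genes in each siRNA comparison. Testing only genes at or above the median level, which leaves out dim genes, gave 1 epithelial gene, 2 cadherins and 6 genes between the siRNAs. An intensity trend gave 7 genes with siDKK2 and 16 between the siRNAs, and the 4 arrays compared alone gave 0 and 18. The cause was not tested.

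Each array was left out in turn, and each such line difference rests on the arrays of the remaining siRNAs. Counts between the lines ran from 0 to 1 for other EMT transcription factors, 2 to 5 for other cadherins and 0 to 1 for endothelial markers. The members past the threshold numbered 0 to 1 with siDKK2 and 0 to 1 between the siRNAs, the 1 being CD44 without the SK-N-MC siDKK2 array. All genes past it numbered 0 to 60 with siDKK2, 0 to 4 with siITM2A and 1 to 50 between the siRNAs. For siDKK2 against control, FN1 ran from -0.64 to 0.18, CDH2 from -0.12 to 0.070, CDH11 from -0.027 to 0.076, SNAI2 from -0.56 to 0.082, ZEB1 from -0.13 to 0.060, with both signs. For siITM2A against control, FN1 ran from -0.72 to 0.11, CDH2 from -0.078 to 0.11, SNAI2 from -0.42 to 0.22, ACTA2 from -0.43 to 0.070, CD44 from -0.36 to 0.25, with both signs. For siDKK2 against siITM2A, FN1 ran from -0.31 to 0.46, CDH2 from -0.12 to 0.040, SNAI2 from -0.42 to 0.13, TNC from -0.14 to 0.31, with both signs. The other values kept their sign. Arrays carry no background measure here, so dim values such as ZEB1 or CDH2 in SK-N-MC limit the folds. The same holds for related genes whose lower line had a mean under the array medians. Among them were FBN2 (2.63), FBN1 (2.84) and NEFM (2.86) in SK-N-MC, and DCN (2.20), FAP (2.44) and ITGA4 (3.00) in A673.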
